A study of Mus musculus with 72 samples.

Results

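The 10 genes described here mark Kupffer cells, the resident macrophages of the liver, and macrophages in general: Clec4f, Vsig4, Timd4, Cd5l, Marco, Adgre1, Csf1r, C1qa, Mrc1 and Cd163. They were chosen by symbol from a deposited table of 20105 genes, and all 10 passed the filter on low counts. In whole liver nuclei all 10 rose with 8025 cachexia, where 18.7% of all genes tested rose. In C26 tumour bearers 7 rose before weight loss (8.72% of genes) and 5 in cachexia (11.8%). With the NC26 tumour, which causes no wasting, 3 of the 10 rose (0.706% of genes). These NC26 results, and some of those in C26 cachexia, were lost when single animals were left out. With the MC38 tumour no member and no gene of 13738 passed the test. There, 9 of 10 members had positive log2 changes, with a median of 0.54.

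Kupffer cells sit in the liver sinusoids, where they clear bacteria, ageing blood cells and debris from portal blood, and they are seeded before birth and largely maintain themselves. When they are lost or activated, blood monocytes enter the liver and can take on a similar identity. CSF1 and its receptor keep macrophages alive, and the transcription factor PU.1, product of Spi1, is needed for the identity of all of them.

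The study measured RNA of liver nuclei from 36 mice, with a whole liver and a bead-bound hepatocyte library from each animal. Every animal, PBS controls included, carried the CAG-Sun1/sfGFP transgene and Albumin-Cre, which tags nuclear envelopes of hepatocytes, the cells in which the albumin promoter is active. The 9 groups held 4 animals each, told apart by animal number. In BALB/c mice, 3 groups formed the C26 cohort (PBS, C26 tumour before cachexia, and C26 tumour with over 10% weight loss) and 2 the NC26 cohort (PBS and NC26 tumour). In C57BL/6N mice, 2 groups formed the 8025 cohort (PBS and 8025 tumour with over 10% weight loss) and 2 the MC38 cohort (PBS and MC38 tumour). All livers were taken at zeitgeber time 9 h. Age and sex are not in the labels used here. The members come from cells that do not carry the tag, so their main readout is whole liver nuclei, and hepatocyte nuclei show what share was carried through the purification. In these bulk samples, fewer cells of a type and less RNA per cell cannot be told apart.

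Libraries of whole liver nuclei held 12.2 M to 30.3 M counts, and those of hepatocyte nuclei 8.49 M to 56.4 M. Values below are in CPM, counts scaled to a common library size, with animals given in the order 1 to 4, and a gene is called higher or lower at an adjusted p under 0.05 by edgeR's quasi-likelihood test. In 15 of 180 groups of 4 values (10 genes, 9 groups, 2 fractions), the highest or lowest animal stood far from the rest. C26 PBS animal 1 stood apart in hepatocyte nuclei, where it was the highest of its group for 9 of 10 members. The C26 cachexia and pre-cachexia comparisons share their PBS animals.

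Part of the sequence just before the transcription start could be shown for 7 members, from RefSeq on GRCm38.p6; Adgre1, Csf1r and C1qa are named only. The 4 windows of 250 bases printed here are those of Clec4f and Vsig4, the members most restricted to Kupffer cells, and of Cd5l and Cd163, the called members with the largest fold changes in C26 animals before and in cachexia. Capitals mark GAGGAA, the core bound by PU.1, searched on both strands (TTCCTC on the printed strand is the same core read from the other). The windows lie at chr6:83656117-83656366 (minus strand) for Clec4f, chrX:96293439-96293688 (minus strand) for Vsig4, chr3:87357631-87357880 (plus strand) for Cd5l and chr6:124304401-124304650 (plus strand) for Cd163.
Clec4f: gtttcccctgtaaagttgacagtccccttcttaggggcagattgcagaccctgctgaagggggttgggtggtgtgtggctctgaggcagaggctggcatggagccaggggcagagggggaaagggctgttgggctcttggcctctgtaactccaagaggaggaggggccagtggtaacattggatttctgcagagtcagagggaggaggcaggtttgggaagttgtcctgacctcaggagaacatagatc
Vsig4: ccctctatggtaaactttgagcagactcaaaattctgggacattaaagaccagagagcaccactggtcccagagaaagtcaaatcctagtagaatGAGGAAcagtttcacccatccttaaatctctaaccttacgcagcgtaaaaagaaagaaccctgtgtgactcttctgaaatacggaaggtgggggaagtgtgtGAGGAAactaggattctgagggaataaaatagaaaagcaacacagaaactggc
Cd5l: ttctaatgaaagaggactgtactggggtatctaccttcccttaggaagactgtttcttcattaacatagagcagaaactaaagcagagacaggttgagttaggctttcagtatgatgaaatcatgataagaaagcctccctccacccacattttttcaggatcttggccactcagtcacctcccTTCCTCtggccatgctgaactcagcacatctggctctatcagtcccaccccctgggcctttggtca
Cd163: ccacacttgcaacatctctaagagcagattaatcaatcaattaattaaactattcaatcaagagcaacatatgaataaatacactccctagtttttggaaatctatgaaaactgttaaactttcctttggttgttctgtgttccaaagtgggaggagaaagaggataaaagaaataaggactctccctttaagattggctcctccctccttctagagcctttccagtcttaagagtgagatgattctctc
Vsig4 held 2 copies of the core and Cd5l 1, while Clec4f and Cd163 held none. Among the windows not printed, Mrc1 held 3 copies, Marco 1 and Timd4 none. So 4 of the 7 windows held the core, against 23.3% of 32851 RefSeq windows of this length. An NF-kB motif, GGGA and CC with 4 bases of any kind between them, was in 3 of 7 windows against 17.6%, and TGCTGA, a MAF core, in 3 of 7 against 16.1%. The Marco window (chr1:120505025-120505274, minus strand) reaches into the Marco span given below, which ends at 120505084. The NF-kB match of that window lies inside this overlap. ACANNNTGT, a short glucocorticoid receptor motif, was in the window of Timd4 alone against 5.84% of all. No window held GAAA repeated after 2 bases of any kind (IRF, 2.98% of all), TTCNNNGAA (STAT, 7.02%) or TTGCNNAA (C/EBP, 9.56%). Motifs were searched on both strands and may overlap each other. A match is a run of letters, not a measured binding site.

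Counts were taken over whole gene spans, introns included, on mm10. Clec4f spans chr6:83644542-83656116, Vsig4 chrX:96247203-96293438, Timd4 chr11:46810799-46844333, Cd5l chr3:87357881-87371074 and Marco chr1:120474538-120505084. Adgre1 spans chr17:57358686-57483529, Csf1r chr18:61105572-61131139, C1qa chr4:136895916-136898844, Mrc1 chr2:14229414-14332023 and Cd163 chr6:124304651-124330527. Exons make up 2.59% (Adgre1) to 35.5% (C1qa) of these spans, and the spans of Csf1r and Mrc1 each hold a microRNA gene (Mir6983 and Mir511).

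Without a tumour, Clec4f, a lectin receptor found on rodent Kupffer cells, had the highest level per length of the 10. Over the 16 PBS animals its whole liver level was 2.79 ± 0.412 CPM per kb of counted span (SD, n = 16). Mrc1, the mannose receptor, which sinusoidal endothelial cells also express, followed at 1.38 ± 0.318 CPM per kb. Clec4f was above Mrc1 in 16 of 16 animals.
Then came Cd5l, a secreted protein of tissue macrophages (1.07 ± 0.275 CPM per kb), Cd163, the haemoglobin scavenger receptor (1.05 ± 0.429), Csf1r (0.983 ± 0.128) and C1qa, a chain of complement C1q (0.885 ± 0.488). Vsig4, a complement receptor, stood at 0.540 ± 0.118 CPM per kb, and Timd4, a receptor for phosphatidylserine on dying cells, at 0.502 ± 0.101. From Mrc1 down to Timd4, no neighbouring pair differed by more than the larger of its SDs. Adgre1, which encodes the macrophage surface protein F4/80, was lower at 0.282 ± 0.0677 CPM per kb. Marco, a scavenger receptor that binds bacteria, was lowest at 0.0412 ± 0.0405. Timd4 was above Adgre1, and Adgre1 above Marco, in 16 of 16 animals. The plot of levels per kb shows this order with each animal as a point.

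**Figure D1:**
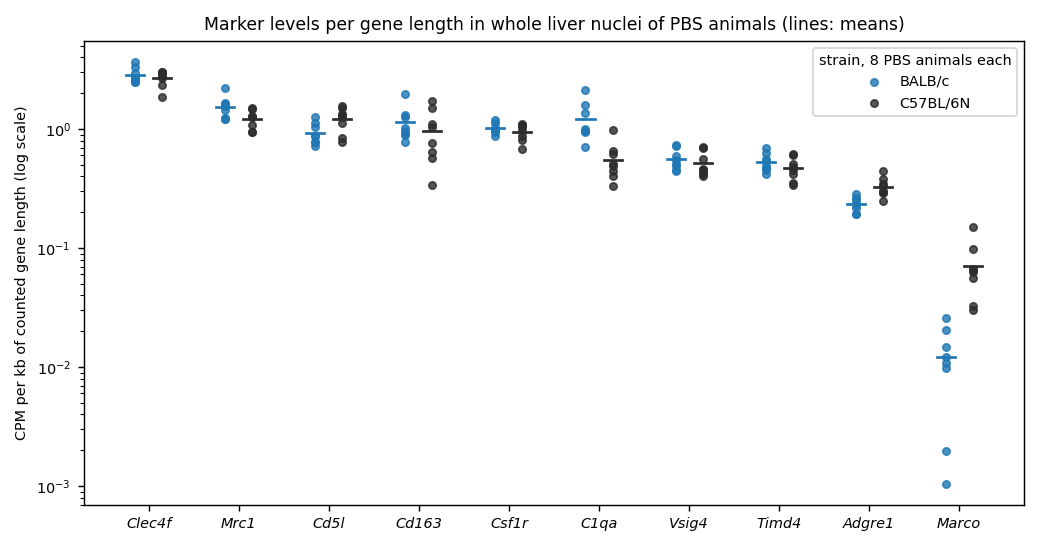
Level of each gene in whole liver nuclei of the 16 PBS animals, in CPM per kb of counted span on a log axis, 1 point per animal and a line for the mean of the 8 animals of each strain. Clec4f is highest and Marco lowest, and for Marco all BALB/c points lie below all C57BL/6N points.

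Between strains, 4 members differed in PBS animals: Marco and Adgre1 were lower, and C1qa and Mrc1 higher, in BALB/c than in C57BL/6N mice. That is 2 of 10 in each direction, against 18.2% of 13738 genes tested that were higher in BALB/c and 21.4% that were lower.
Marco read 0.455, 0.303, 0.329 and 0.785 CPM in the C26 PBS animals and 0.624, 0.0320, 0.0606 and 0.374 in the NC26 PBS animals. It read 0.921, 1.92, 2.01 and 2.99 CPM in the 8025 PBS animals and 1.70, 2.03, 4.60 and 0.988 in the MC38 PBS animals. Every BALB/c animal lay below every C57BL/6N animal, with a fitted level 5.78-fold lower (log2 difference -2.53 ± 0.48 SE, adjusted p = 9.5e-05, n = 8 and 8 in edgeR's test). The share of all genes without overlap between the strains was not counted, so the separation is a description only.
C1qa was 2.15-fold higher in BALB/c PBS mice (adjusted p = 0.00019), at 1.22 against 0.554 CPM per kb. Adgre1 was 1.40-fold lower (adjusted p = 0.0071). Mrc1 was 1.235-fold higher (adjusted p = 0.023), a call lost without C26 PBS animal 1 (0.081), NC26 PBS animal 4 (0.052), 8025 PBS animal 3 (0.064) or MC38 PBS animal 2 (0.061).
Strain, cohort and processing of the cohorts cannot be told apart here beyond what the PBS groups of the same strain show. Between the BALB/c PBS groups, Mrc1 alone was called, 1.40-fold higher in the C26 cohort (adjusted p = 0.037, against 5.46% of genes higher), and Mrc1 and Timd4 had no overlap, both higher in the C26 cohort (10.3% of genes). Without C26 PBS animal 1 its adjusted p was 0.21, and without NC26 PBS animal 1, 2 or 3 it was 0.093, 0.089 and 0.088. Between the C57BL/6N PBS groups no member was called, with 1 member and 2610 genes at an unadjusted p under 0.05 and 64 genes (0.466%) called. DESeq2 called no member there either.

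Before cachexia, C26 tumour bearers had higher levels of 7 of the 10 genes than PBS animals: Clec4f, Vsig4, Timd4, Cd5l, Adgre1, Csf1r and C1qa. All 7 also had every tumour bearer above every PBS animal. Over all genes tested, 8.72% were called higher and 10.1% had all 4 values above all 4. The median log2 change of the 10 genes was 0.97, and that of all genes 0.03.
Cd5l changed most among the called members. It read 10.2, 16.6, 9.59 and 14.9 CPM in PBS animals and 65.7, 54.2, 46.2 and 50.6 CPM before cachexia. The lowest tumour bearer was thus above the highest PBS animal, and the fitted level was 4.28-fold higher (log2 change 2.10 ± 0.33 SE, adjusted p = 9.8e-05, n = 4 and 4 in edgeR's test).
Clec4f read 30.9, 38.9, 30.8 and 42.5 CPM in PBS animals and 70.8, 79.4, 50.5 and 71.4 CPM before cachexia. Tumour bearer 3 was the lowest of its group, still above all PBS animals, and the level rose 1.92-fold (log2 change 0.94 ± 0.17 SE, adjusted p = 0.00057).
Vsig4 read 34.2, 33.4, 22.4 and 27.6 CPM in PBS animals and 65.6, 60.2, 49.0 and 62.2 CPM before cachexia. It rose 2.03-fold (log2 change 1.02 ± 0.19 SE, adjusted p = 0.00077), again with no overlap.
Timd4 read 23.4, 21.1, 18.8 and 17.99 CPM against 46.3, 37.3, 31.5 and 32.9 before cachexia. It rose 1.83-fold (adjusted p = 0.0037).
Of the broader macrophage markers, Adgre1 read 35.5, 32.9, 29.0 and 30.4 CPM in PBS animals and 75.0, 74.8, 58.7 and 66.4 CPM before cachexia. It rose 2.17-fold (log2 change 1.12 ± 0.20 SE, adjusted p = 5e-04). Csf1r read 24.1, 28.8, 24.7 and 30.5 CPM against 49.4, 61.3, 43.2 and 52.5, a rise of 1.93-fold (adjusted p = 0.00023). Pre-cachexia animal 3 was the lowest of its group for 9 of the 10 genes.
C1qa rose 1.999-fold (adjusted p = 0.019), from 2.08 to 6.28 CPM over PBS animals to between 7.07 and 10.3 CPM. That call was lost without C26 PBS animal 1 (adjusted p = 0.10) or pre-cachexia animal 2 (0.067).
The scavenger receptors Mrc1 and Cd163 did not pass the test. Cd163 read 51.0, 34.2, 20.2 and 33.0 CPM in PBS animals and 59.5, 31.5, 46.7 and 43.9 CPM before cachexia, overlapping widely (log2 change 0.40, 95% interval -0.25 to 1.05, adjusted p = 0.46). Mrc1 had a log2 change of 0.19 (interval -0.11 to 0.48, adjusted p = 0.44). Marco, at 0.303 to 2.37 CPM in both groups, had a log2 change of 1.73 ± 0.67 SE with an adjusted p of 0.083, which became 0.042 without pre-cachexia animal 3.

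**Figure D2:**
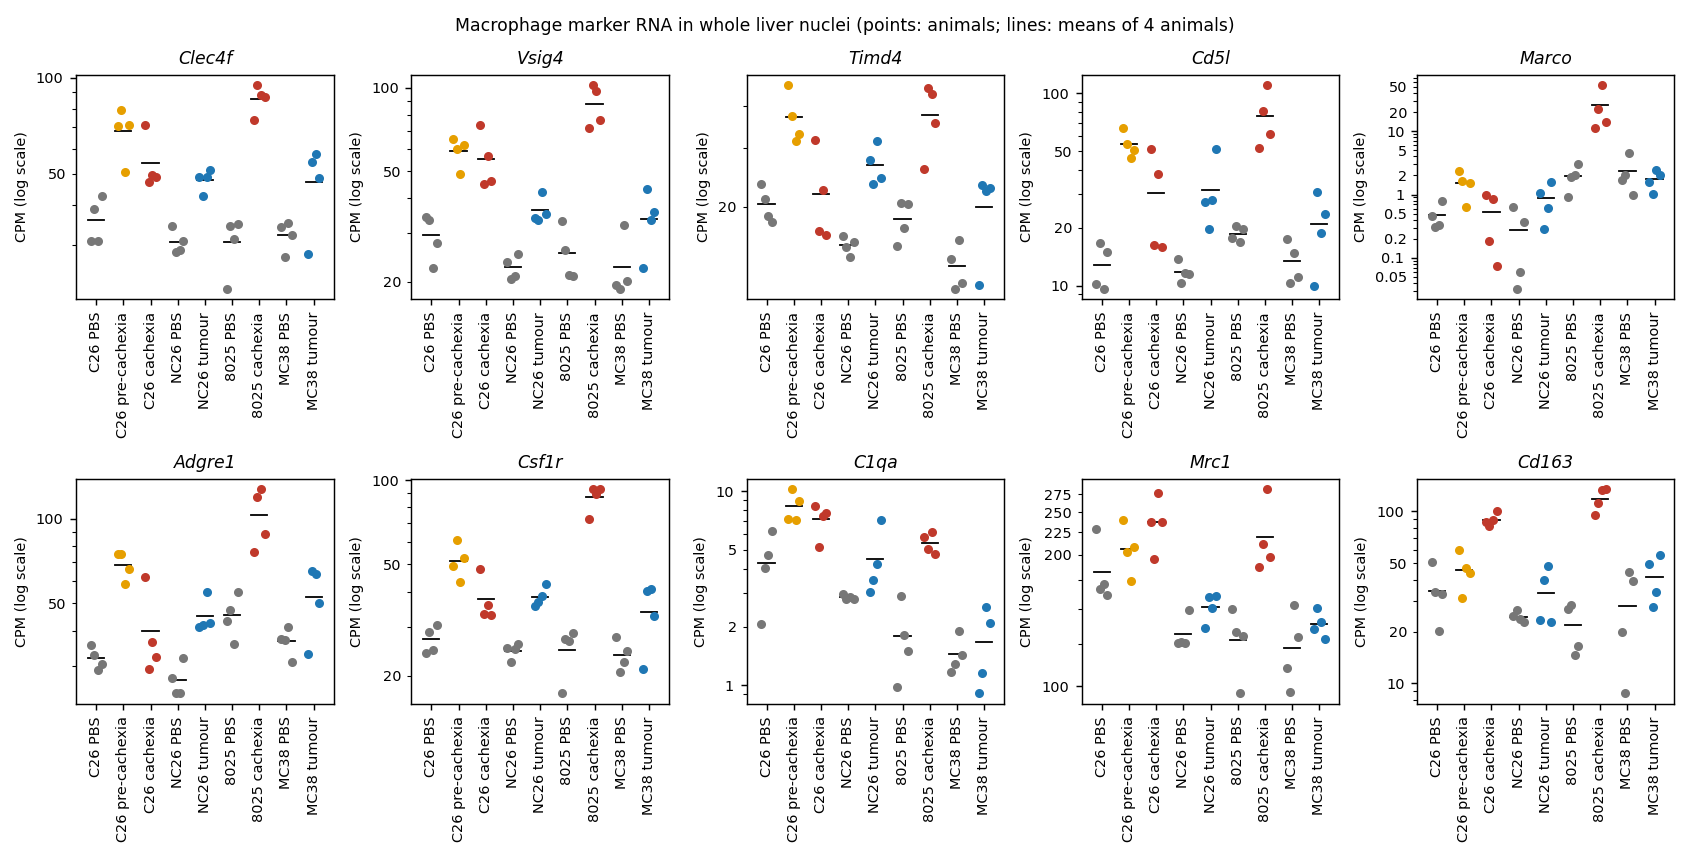
CPM of each of the 10 genes in whole liver nuclei (log axis), 1 point per animal in each of the 9 groups, with a line for the group mean. The 8025 cachexia animals lie above their PBS animals for every gene, and Cd163 is the gene for which C26 cachexia, but not pre-cachexia, stands clear of PBS.

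In C26 cachexia 5 of the 10 genes were higher than in PBS animals: Clec4f, Vsig4, Cd5l, Csf1r and Cd163. Of these, 4 had every cachectic animal above every PBS animal, the exception being Cd5l. Over all genes tested, 11.8% were called higher and 14.0% had all 4 values above all 4. The median log2 change of the members was 0.52 against -0.02 for all genes.
Cd163 read 86.5, 81.8, 89.5 and 101 CPM in the cachectic animals, against 20.2 to 51.0 CPM in PBS animals. It was 2.53-fold higher (log2 change 1.34 ± 0.34 SE, adjusted p = 0.0038). Vsig4 read 73.6, 45.0, 56.95 and 46.2 CPM, above the PBS range of 22.4 to 34.2 CPM, and was 1.85-fold higher (log2 change 0.89 ± 0.19 SE, adjusted p = 0.0011). The calls of Cd163 and Vsig4 held in every alternative run for this comparison, including leaving out each animal.
Clec4f read 71.0, 47.1, 49.5 and 48.9 CPM, so that cachectic animal 1 stood apart from the other 3, which were close to the PBS maximum of 42.5 CPM. It was 1.49-fold higher (log2 change 0.58 ± 0.17 SE, adjusted p = 0.015). Cd5l read 51.5, 16.2, 38.2 and 15.9 CPM, with animals 2 and 4 inside the PBS range of 9.59 to 16.6 CPM and animals 1 and 3 above it. It was 2.35-fold higher in the fit (log2 change 1.23 ± 0.33 SE, adjusted p = 0.0062). Csf1r read 48.1, 33.2, 35.7 and 33.0 CPM and was 1.37-fold higher (adjusted p = 0.041).
Timd4 read 31.5, 16.9, 22.4 and 16.5 CPM, around the PBS values (log2 change 0.08, 95% interval -0.31 to 0.47, adjusted p = 0.82). Adgre1 read 61.9, 29.3, 36.4 and 32.2 CPM, with animal 1 far above the rest (log2 change 0.30, interval -0.10 to 0.69, adjusted p = 0.31). C1qa (log2 change 0.74, adjusted p = 0.060), Mrc1 (0.35, adjusted p = 0.092) and Marco (0.17, adjusted p = 0.90) were not called.
Cachectic animal 1 was the highest of its group for 8 of the 10 genes, and without it 2 of the 5 calls held: Clec4f then had an adjusted p of 0.083, Cd5l 0.055 and Csf1r 0.17. Clec4f was also lost without C26 PBS animal 1 (0.053) or 3 (0.059), and Csf1r without PBS animal 1 (0.10), 2 (0.055) or 3 (0.11) or cachectic animal 3 (0.057). In the other direction, Mrc1 was called without PBS animal 1 (0.021), and C1qa without PBS animal 4 (0.023) or cachectic animal 2 (0.039). With library totals in place of TMM scaling, 3 members were called and the median change of all genes moved by -0.10.

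Set directly against pre-cachexia, C26 cachexia had lower Timd4, Adgre1 and Csf1r, and no member was called higher. That is 3 of 10 lower, against 6.94% of all genes. Timd4 was 1.73-fold lower (log2 change -0.79 ± 0.20 SE, adjusted p = 0.0076), Adgre1 1.76-fold lower (-0.82 ± 0.20 SE, adjusted p = 0.0071) and Csf1r 1.41-fold lower (-0.49 ± 0.16 SE, adjusted p = 0.041). The groups overlapped for all 3 through cachectic animal 1, which read above the lowest pre-cachexia animal.
Cd163 was the 1 member whose cachectic animals all lay above the pre-cachexia animals, against 8.16% of all genes. Its log2 change was 0.94 ± 0.33 SE with an adjusted p of 0.061, and 0.042 without pre-cachexia animal 1. Cd5l had a log2 change of -0.87 ± 0.32 SE (adjusted p = 0.076), and was called lower without cachectic animal 1 (0.012). Csf1r lost its call without pre-cachexia animal 1 (0.079), 2 (0.19) or 4 (0.086) or cachectic animal 2 (0.13), 3 (0.12) or 4 (0.17). Timd4 lost its call without cachectic animal 4 (0.055).

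The 8025 tumour gave the highest levels in the study for 8 of the 10 genes. All 10 rose against the PBS animals of the cohort, and all 10 had every cachectic animal above every PBS animal. Over all genes tested, 18.7% were called higher and 15.8% had all 4 values above all 4. The median log2 change was 1.66 for the members and -0.02 for all genes, and all 10 calls held without any 1 animal.
Marco rose most, from 0.921, 1.92, 2.01 and 2.99 CPM in PBS animals to 11.3, 22.7, 54.2 and 14.0 CPM. Cachectic animal 3 was far above the other 3, which were themselves above every PBS animal, and the fitted rise was 12.6-fold (log2 change 3.66 ± 0.57 SE, adjusted p = 6.9e-06, n = 4 and 4 in edgeR's test). Without animal 3 the log2 change of Marco was 2.996 ± 0.54 SE (adjusted p = 8.8e-05).
Cd163 read 26.9, 28.7, 14.7 and 16.5 CPM in PBS animals and 95.3, 113, 132 and 135 CPM in cachexia. It rose 5.31-fold (log2 change 2.41 ± 0.35 SE, adjusted p = 2.5e-06). Cd5l read 17.6, 20.5, 16.8 and 19.7 CPM against 51.9, 80.8, 110.4 and 61.0, a rise of 3.95-fold (adjusted p = 1.9e-05). As for Marco, animal 3 was the highest.
Csf1r, the receptor for CSF1 and IL-34, had the smallest p of the members. It read 17.3, 27.0, 26.5 and 28.4 CPM in PBS animals and 72.8, 92.8, 89.4 and 92.9 CPM in cachexia, 3.40-fold higher (log2 change 1.76 ± 0.17 SE, adjusted p = 1.5e-09).
Of the Kupffer cell genes, Vsig4 read 33.0, 26.05, 21.2 and 21.0 CPM against 71.6, 103, 97.5 and 76.8, a rise of 3.33-fold (log2 change 1.74 ± 0.20 SE, adjusted p = 4e-08). Clec4f read 21.7, 34.2, 31.2 and 34.8 CPM against 73.7, 95.1, 88.4 and 87.1, a rise of 2.74-fold (log2 change 1.45 ± 0.18 SE, adjusted p = 1.3e-07). Timd4 rose less, 1.98-fold (adjusted p = 0.00025), from 15.2 to 20.6 CPM over PBS animals to 25.96 to 45.2 CPM.
C1qa rose 2.98-fold (adjusted p = 2e-04) and Adgre1 2.20-fold (adjusted p = 5.2e-05). Mrc1 had the smallest rise, 1.67-fold (log2 change 0.74 ± 0.15 SE, adjusted p = 0.00027), with values of 151, 133, 96.3 and 130.3 CPM in PBS animals and 188, 212, 283 and 198 CPM in cachexia. Cachectic animal 1 was the lowest of its group for 9 of the 10 genes and remained above all PBS animals for each.

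With NC26, which causes no wasting, 3 of 10 genes were called higher, against 0.706% of all genes. The median log2 change of the members was 0.68, against 0.01 for all genes. For 7 of 10 genes every tumour bearer was above every PBS animal, against 5.17% of all genes. Cd5l read 13.8, 10.3, 11.6 and 11.5 CPM in PBS animals and 27.2, 19.7, 27.8 and 51.2 CPM in tumour bearers, 2.69-fold higher (log2 change 1.43 ± 0.33 SE, adjusted p = 0.026). Timd4 read 16.4, 15.2, 14.2 and 15.7 CPM against 27.5, 23.5, 31.4 and 24.3, 1.75-fold higher (adjusted p = 0.045). Csf1r read 25.1, 22.5, 25.0 and 25.9 CPM against 35.6, 36.6, 38.5 and 42.4, 1.57-fold higher (adjusted p = 0.047). None of these groups overlapped.
Clec4f (log2 change 0.66, adjusted p = 0.070), Vsig4 (0.69, adjusted p = 0.091), Adgre1 (0.77, adjusted p = 0.069) and C1qa (0.66, adjusted p = 0.34) also had no overlap but missed the threshold. Mrc1, Cd163 and Marco overlapped, with log2 changes of 0.22, 0.47 and 1.61, and were not called.
The NC26 calls stood close to the threshold. Leaving out NC26 PBS animal 1, 2, 3 or 4 or tumour bearer 4 left no member called, with adjusted p between 0.065 and 0.19 for these 3 genes. Leaving out tumour bearer 1 or 3 left Cd5l alone, and leaving out tumour bearer 2 left Cd5l and Timd4. The count was 1 with a replicate block, 1 with DESeq2 size factors, 1 without a filter on low counts, 5 with DESeq2 and 6 in a fit of the NC26 cohort alone.
With MC38 no member was called, and no gene of 13738 was, while 5 members and 790 genes had an unadjusted p under 0.05; DESeq2 called 14 genes and no member. Log2 changes ran from -0.38 (Marco) to 0.64 (Cd5l), were positive for 9 of 10 genes and had a median of 0.54. They were 0.59 for Timd4, 0.58 for Vsig4, 0.57 for Cd163, 0.56 for Clec4f, 0.53 for Adgre1, 0.51 for Csf1r, 0.25 for C1qa and 0.18 for Mrc1. Clec4f read 34.0, 27.4, 35.0 and 32.0 CPM in PBS animals and 28.1, 54.6, 57.6 and 48.5 CPM in tumour bearers. Tumour bearer 1 lay inside the PBS range while the other 3 lay above it, and it was the lowest of its group for 7 of the 10 genes.

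The differences between tumour effects were tested within each strain. Against the MC38 effect, the 8025 effect was larger for 7 of 10 genes (7.58% of all genes): Clec4f (difference of log2 changes 0.89, adjusted p = 0.014), Vsig4 (1.16, 0.0048), Cd5l (1.35, 0.045), Marco (4.04, 0.00082), Csf1r (1.26, 4e-04), C1qa (1.33, 0.045) and Cd163 (1.84, 0.0092).
Timd4 (0.39, 95% interval -0.16 to 0.94), Adgre1 (0.61, 0.05 to 1.16) and Mrc1 (0.56, 0.14 to 0.98) were not called, with adjusted p of 0.38, 0.15 and 0.075. The calls of Clec4f, Vsig4, Marco, Csf1r and Cd163 held without any 1 animal, with a difference of 3.38 for Marco without 8025 cachexia animal 3. That of Cd5l was lost without 8025 PBS animal 1, 2, 3 or 4, 8025 cachexia animal 2 or 3, MC38 PBS animal 1 or 3, or MC38 tumour bearer 1 or 3 (adjusted p 0.055 to 0.10). That of C1qa was lost without 8025 PBS animal 1 or 4, 8025 cachexia animal 1 or 3, MC38 PBS animal 2, 3 or 4, or MC38 tumour bearer 1 or 2 (0.052 to 0.11). Without MC38 PBS animal 2, Mrc1 was called (0.042).
The C26 cachexia effect did not pass the test against the NC26 effect for any member, with 1 member (Timd4) at an unadjusted p under 0.05; 467 genes (3.40%) were called, and DESeq2 called no member. Intervals were wide: the difference of log2 changes was 0.87 for Cd163 (-0.05 to 1.79), -0.73 for Timd4 (-1.28 to -0.18) and -0.08 for Clec4f (-0.56 to 0.40). For the others it ran from -1.44 (Marco, -3.52 to 0.65) through Adgre1 (-0.47), Cd5l (-0.20), Csf1r (-0.20), C1qa (0.08) and Mrc1 (0.13) to 0.20 (Vsig4, -0.34 to 0.73).
Across strains, the C26 cachexia effect was smaller than the 8025 effect for 4 of 10 genes (4.60% of all genes): Csf1r (-1.31, adjusted p = 0.00076), Marco (-3.48, 0.023), Clec4f (-0.87, 0.026) and Timd4 (-0.91, 0.046). Tumour and strain cannot be told apart in this contrast. The call of Csf1r held without any 1 animal. Of the 4, Csf1r alone was called without C26 PBS animal 4, C26 cachexia animal 2 or 8025 cachexia animal 3, and without the last the difference for Marco was -2.80 (adjusted p = 0.074). Clec4f also lost its call without C26 PBS animal 2, C26 cachexia animal 4, 8025 PBS animal 1 or 8025 cachexia animal 2 (adjusted p 0.051 to 0.066). Timd4 lost its call without C26 PBS animal 1, 2 or 3, C26 cachexia animal 3 or 4, 8025 PBS animal 1 or 3, or 8025 cachexia animal 2 (0.054 to 0.10). In the other direction, Vsig4 and Adgre1 were called as well, 6 members in all, without C26 cachexia animal 1 or 8025 cachexia animal 1. Vsig4 was also called without C26 PBS animal 3 (0.035), 8025 PBS animal 1 (0.027) or 8025 cachexia animal 4 (0.049), and Adgre1 without 8025 PBS animal 4 (0.050). The count was 7 with library totals and 2 in a fit of these cohorts alone.

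**Figure D3:**
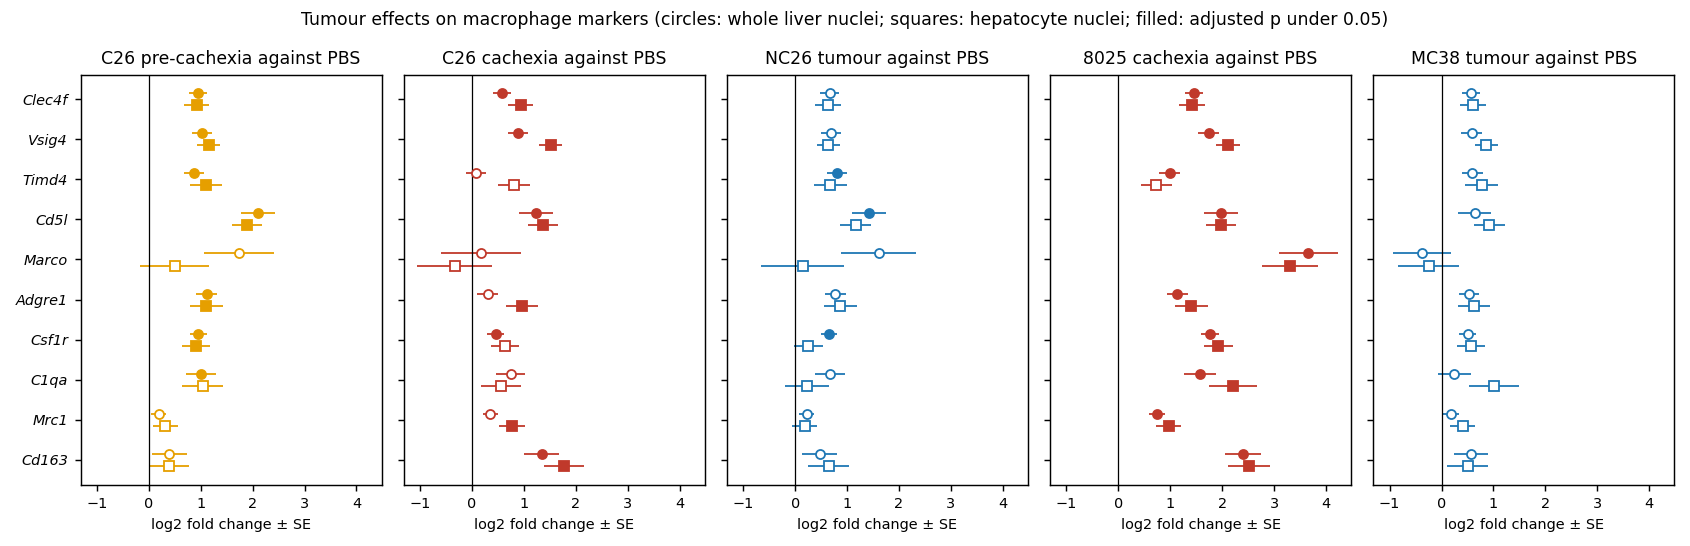
Log2 change of each gene against the PBS animals of the cohort for the 5 tumour groups, in whole liver nuclei (circles) and hepatocyte nuclei (squares), with bars of 1 SE and filled points for called genes. All 10 circles of 8025 cachexia are filled and no point of MC38 is, and Mrc1 and Cd163 have the smallest changes before C26 cachexia.

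In hepatocyte nuclei all 10 genes were lower than in whole liver nuclei, in PBS animals, against 24.5% of 14054 genes. Of 10 hepatocyte genes 3 were higher there (26.4% of all genes) and none lower, while all 14 sinusoidal endothelial and all 12 stellate cell genes were lower. The fitted share that remained ran from 11.9% for Vsig4 to 27.8% for Marco. It was 12.4% for Adgre1, 12.9% for Mrc1, 13.3% for Timd4, 14.3% for Cd163, 15.3% for Clec4f, 16.4% for Cd5l, 17.7% for Csf1r and 22.3% for C1qa. Counts of Marco in hepatocyte libraries ran from 0 to 240, so its share is the least certain.
The share per animal varied more than the medians did. For Clec4f it ran from 5.84% to 29.6% over 16 PBS animals (median 15.1%) and from 8.41% to 29.8% over 20 tumour bearers (median 17.6%). For Vsig4 it ran from 5.29% to 16.2% (median 12.6%) and from 8.88% to 22.0% (median 15.1%). C26 PBS animal 1 kept 88.6% of C1qa, 42.4% of Csf1r, 40.8% of Cd5l, 33.8% of Marco and 29.6% of Clec4f. It kept 16.6% of Timd4, 16.2% of Adgre1, 15.03% of Mrc1, 14.5% of Cd163 and 10.3% of Vsig4. The shares of Cd163 and Vsig4 were below the medians of PBS animals (15.4% and 12.6%), so high shares did not cover all members. In whole liver nuclei this animal was the lowest of its group for C1qa (2.08 CPM) and Csf1r (24.1 CPM). Its summed sinusoidal endothelial genes were the highest of its group in hepatocyte nuclei (440.04 CPM, group median 271). The part of such carry-over in the differences below was not tested.

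**Figure D4:**
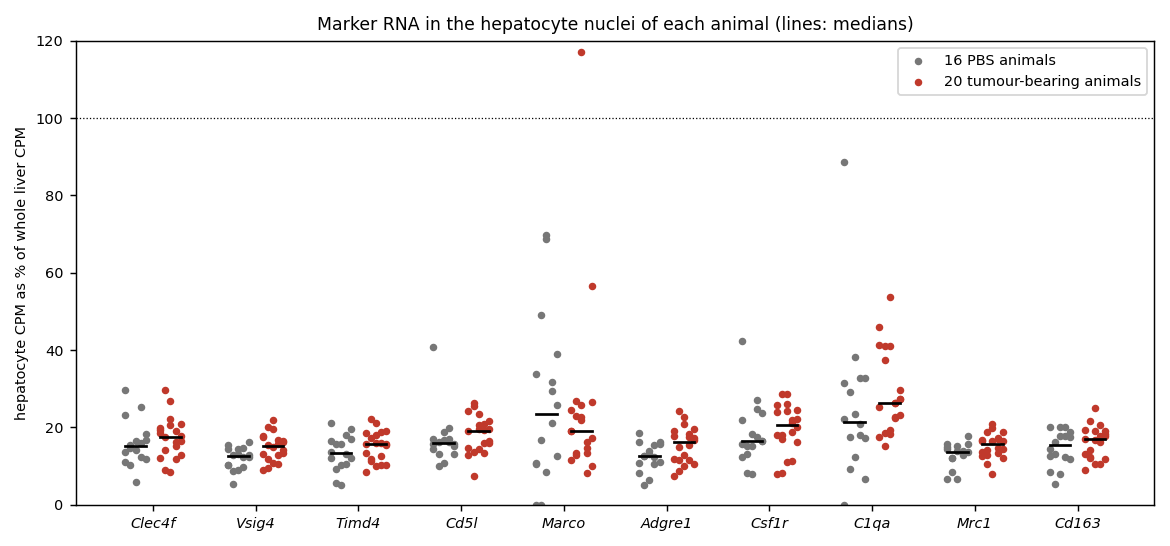
Share of each gene's whole liver CPM found in hepatocyte nuclei of the same animal, in percent, 1 point per animal for 16 PBS animals and 20 tumour bearers, with lines for the medians and a dotted line at equal levels. Points of Marco and C1qa, the genes with the fewest counts, scatter most, and C26 PBS animal 1 is the highest PBS point of Cd5l (40.8%) and Csf1r (42.4%).

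Tumour effects in hepatocyte nuclei had the direction of those in whole liver nuclei, at lower levels, apart from Marco in C26 cachexia (log2 change -0.33, not called). With 8025 cachexia 9 of 10 genes were called higher (16.2% of 13274 genes) and all 10 had no overlap (17.1%). Vsig4 read 3.25, 4.22, 3.30 and 2.69 CPM in PBS animals and 15.8, 16.1, 15.7 and 13.5 CPM in cachexia (4.31-fold, adjusted p = 7.3e-08). Marco had the largest log2 change, 3.30, which was 2.71 without cachectic animal 3 (adjusted p = 0.00031). Log2 changes were 2.52 for Cd163, 2.21 for C1qa, 1.98 for Cd5l, 1.93 for Csf1r, 1.43 for Clec4f, 1.41 for Adgre1 and 0.97 for Mrc1. Timd4 was the member not called (log2 change 0.73 ± 0.30 SE, adjusted p = 0.067).
In C26 cachexia 6 genes were higher (12.2% of genes): Clec4f, Vsig4, Cd5l, Adgre1, Mrc1 and Cd163. Only Vsig4 and Cd163 had no overlap (12.0% of genes). Timd4 (log2 change 0.81), Csf1r (0.64), C1qa (0.56) and Marco were not called. Cd163 read 7.38, 4.49, 4.09 and 4.08 CPM in PBS animals, 7.86, 3.77, 7.83 and 7.18 before cachexia, and 16.5, 13.9, 19.3 and 19.1 in cachexia. It rose 3.42-fold against PBS (adjusted p = 0.0012) and 2.62-fold against pre-cachexia (log2 change 1.39 ± 0.38 SE, adjusted p = 0.018, with 4.81% of genes higher). Cachectic animals all lay above pre-cachexia animals for Cd163 (7.38% of genes) and below them for Csf1r (5.13% of genes), whose log2 change of -0.27 was not called (adjusted p = 0.60). The call against pre-cachexia was lost without pre-cachexia animal 2 (adjusted p = 0.093) or cachectic animal 4 (0.067).
In C26 cachexia Adgre1 lost its call without PBS animal 2, 3 or 4 or cachectic animal 1 or 3 (adjusted p 0.055 to 0.13), and Mrc1 without PBS animal 2, 3 or 4 or cachectic animal 3 or 4 (0.058 to 0.086). Without C26 PBS animal 1, Timd4 (0.012) and Csf1r (0.0096) were called as well, 8 members in all. Timd4 was also called without cachectic animal 2 (0.041) or 4 (0.040).
Before cachexia 6 genes were higher (4.78% of genes), namely Clec4f, Vsig4, Timd4, Cd5l, Adgre1 and Csf1r, and 7 had no overlap (6.69%). C1qa (log2 change 1.03), Marco (0.49), Cd163 (0.39) and Mrc1 (0.32) were not called. Of these, Cd5l (3.70-fold, adjusted p = 0.00027) and Vsig4 (2.23-fold, adjusted p = 0.0017) held their calls without any 1 animal. The other 4 calls were each lost without C26 PBS animal 2, 3 or 4 or pre-cachexia animal 1, with adjusted p between 0.056 and 0.13. Clec4f (0.050) and Adgre1 (0.080) were also lost without pre-cachexia animal 4, and Csf1r without animal 2 or 4 (0.057 for each).
With NC26 no member was called in hepatocyte nuclei, with 5 members and 1579 genes at an unadjusted p under 0.05 and 43 genes (0.324%) called; DESeq2 called 1 member, Cd5l. Clec4f, Vsig4, Timd4 and Cd5l had every tumour bearer above every PBS animal there, against 4.93% of genes. With MC38 no member and no gene was called, with 6 members and 572 genes at an unadjusted p under 0.05, and DESeq2 called 6 genes and no member. Vsig4 and Cd5l had no overlap (1.24% of genes).
A change of the share itself, tested as the difference between the tumour effects of both fractions, was called for no member in any of the 5 tumour comparisons by edgeR or DESeq2. With edgeR, 6 of 14054 genes (0.0427%) were called for 8025 and none for the others. At an unadjusted p under 0.05, Vsig4 in C26 cachexia was the 1 member (difference 0.61, interval 0.04 to 1.19).

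Other macrophage genes were taken from lists in which members do not recur. Of 12 other Kupffer cell genes, 8 rose with 8025 cachexia, 4 before C26 cachexia, and 3 in C26 cachexia, where 1 fell. Of all genes tested, 18.7%, 8.72% and 11.8% rose in these comparisons, and 10.3% fell in C26 cachexia. In 8025 cachexia these included Cfp (properdin, 1.71-fold), Clec1b (the lectin CLEC-2, 2.09-fold) and Spic (a transcription factor of iron-recycling macrophages, 2.61-fold). In C26 cachexia Clec1b rose 3.46-fold (adjusted p = 3.2e-07), Il18bp 1.66-fold and Cfp 1.32-fold, and Id3 fell.
This list is mixed in where its RNA lies. In PBS animals, Clec1b, Spic, Fcna, Folr2 and Cd207 kept 11.4% to 20.8% of their whole liver level in hepatocyte nuclei, whereas Cfp kept 80.6%, Il18bp 92.6%, C6 109% and Nr1h3 121%.
Of 23 pan-macrophage genes tested, 19 rose with 8025 cachexia, 17 before C26 cachexia and 5 in C26 cachexia (18.7%, 8.72% and 11.8% of all genes). In C26 cachexia 11 were lower than before it (6.94% of all genes). In 8025 cachexia Fcgr3, an Fc receptor, rose 7.50-fold, Ctss, a lysosomal protease, 3.69-fold and Spi1 3.49-fold. In C26 cachexia Mpeg1, a pore-forming protein, rose 2.14-fold, Ctss 1.63-fold and Fcgr3 1.99-fold. With NC26 1 of 23 rose (0.706% of all genes), and the list's median log2 change was 0.60, against 0.01 for all genes. With MC38 none rose and no gene of 13738 was called. The list's median there was 0.43, against 0.00095 for all genes.
A further list held ligands of the CSF1 receptor, chains of the receptors for GM-CSF and IL-3, and niche signals. Of its 9 genes tested, 5 rose and 1 fell with 8025 cachexia (18.7% and 17.9% of all genes). In C26 cachexia 2 rose and 1 fell (11.8% and 10.3% of all genes). Csf2rb2 and Csf2rb, both beta chains of such receptors, rose 12.6-fold and 8.07-fold with 8025 cachexia, and 15.2-fold and 3.24-fold in C26 cachexia.

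Markers of other cell types were measured beside the members. Over all genes tested, 17.9% were called lower with 8025 cachexia, 10.3% in C26 cachexia and 4.04% before it, beside the 18.7%, 11.8% and 8.72% called higher. Between pre-cachexia and cachexia in C26 animals, 6.94% of all genes were called lower. Monocyte and recruited macrophage genes rose in 14 of 15 tested with 8025 cachexia, among them Itgam (14.5-fold), F13a1 (18.3-fold) and Vcan (17.2-fold). Their summed level was 25.9 to 34.3 CPM in 8025 PBS animals, where Ly6c2 was at 0, and 117 to 280 CPM (279.5 at the highest) in cachexia. In C26 animals 6 of 15 rose before cachexia and 6 of 15 in cachexia, each against PBS, while 2 were higher and 3 lower in cachexia than before it, with sums of 39.8 to 55.6 CPM in PBS (Chil3 at 0), 63.3 to 82.2 before cachexia and 62.6 to 87.1 in cachexia.
Neutrophil genes summed to 3.44 to 6.56 CPM in 8025 PBS animals, with Ly6g, Retnlg, Ngp and Camp at 0, and to 44.5 to 66.2 CPM in cachexia, where 6 of 6 tested rose. In C26 cachexia 5 of 6 rose, with a sum of 9.23 to 12.8 CPM against 4.66 to 5.74 in PBS. Of 11 neutrophil genes listed, 6 passed the filter on low counts. In this and the other lists, a gene near 0 in PBS animals can pass that filter through the group where it is high. Counts of rises among such genes are therefore descriptions only.
Sinusoidal endothelial genes, of which 4 rose and 3 fell with 8025 cachexia and 4 rose and 1 fell in C26 cachexia, summed to 1102 to 1342 CPM in 8025 cachexia against 1098 to 1327 in PBS. In the C26 cohort their sum was 1609 to 1851 CPM in cachexia against 1452 to 1527 in PBS. Stellate cell genes rose in 1 and fell in 2 of 12 with 8025 cachexia, and rose in 1 and fell in 1 in C26 cachexia.
Macrophage activation genes rose in 8 and fell in 1 of 12 with 8025 cachexia, led by Il4ra (4.22-fold), Il1r2 (94.1-fold in the fit, from a mean near 0.0955 CPM) and Socs3 (11.4-fold). In hepatocyte nuclei mean Socs3 rose from 4.56 to 50.6 CPM (10.7-fold) and Il4ra from 21.6 to 56.7 CPM (2.51-fold). Il1r2 rose there from 0.0324 to 1.95 CPM. In PBS animals 7 of 12 activation genes were lower in hepatocyte than in whole liver nuclei (24.5% of all genes), so this list is mixed in where its RNA lies. Cell cycle genes rose in 5 of 7 with 8025 cachexia and fell in 3 of 7 in C26 cachexia, where the fall against pre-cachexia covered 6 of 7. B cell genes fell in 5 of 9 with 8025 cachexia and in 7 of 9 from pre-cachexia to cachexia in C26 animals. Of 9 T and NK cell genes tested, 2 rose before C26 cachexia and 2 fell in C26 cachexia. None was called with 8025, where their median log2 change was -0.27, against -0.02 for all genes. Of 6 dendritic cell genes, 2 rose before C26 cachexia, 1 rose and 1 fell in C26 cachexia, and 2 rose and 1 fell with 8025 cachexia. Of 10 hepatocyte genes, 1 rose and 3 fell before C26 cachexia, 1 rose and 1 fell in C26 cachexia, and 2 rose and 1 fell with 8025 cachexia. The part of these other cells and of the cell cycle in the members' changes was not tested.

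**Figure D5:**
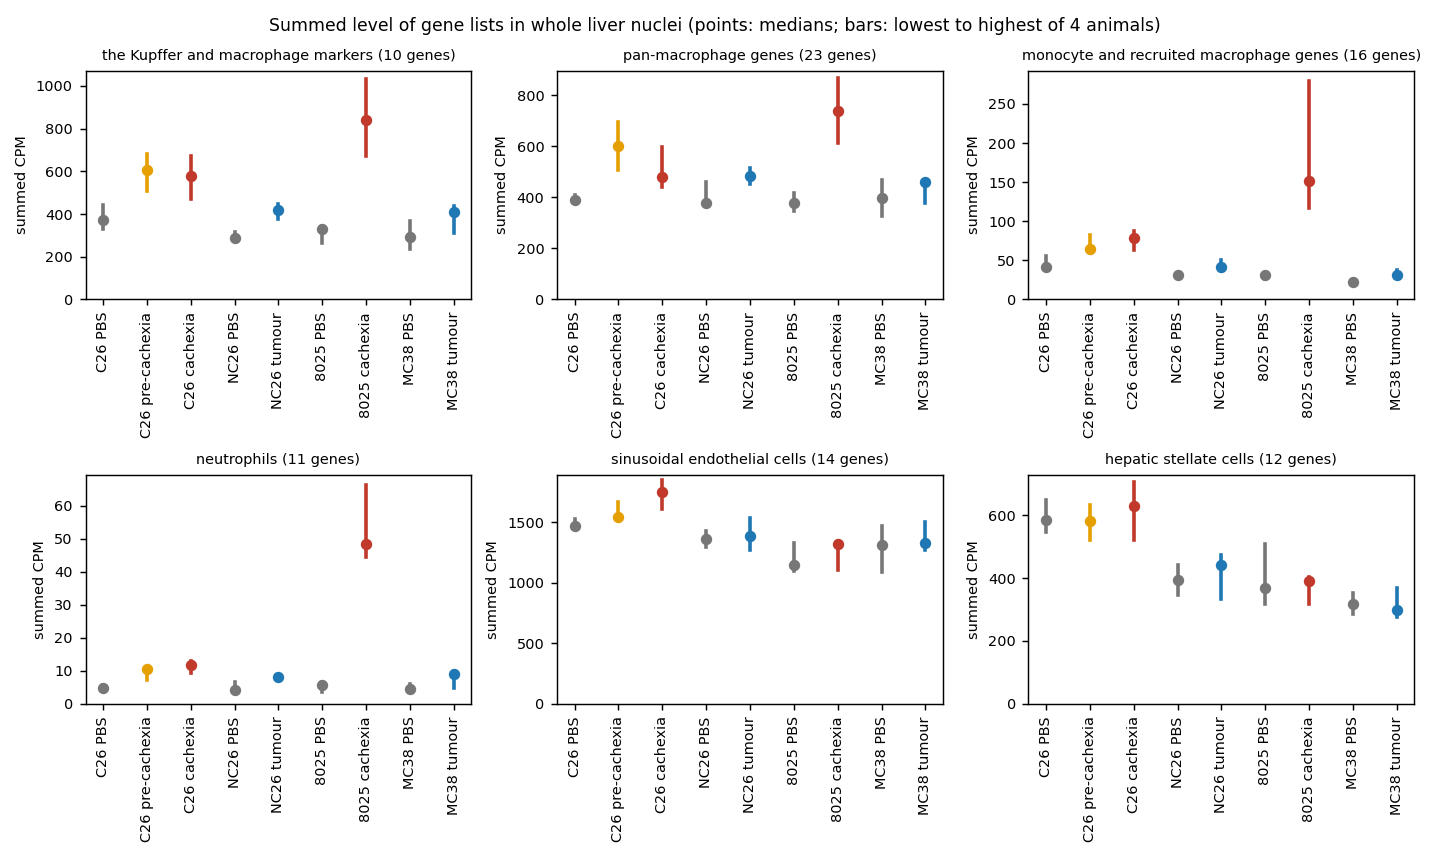
Summed CPM of the 10 members and of 5 marker lists in whole liver nuclei, with the median of each of the 9 groups as a point and its lowest to highest animal as a bar. Monocyte and neutrophil sums of 8025 cachexia lie above those of every other group, while sinusoidal endothelial sums lie between 1087 and 1851 in all groups.

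The members did not vary alike over the 36 whole liver libraries. The correlation of each with the mean of all 10 (standardised log2 CPM, the gene itself included) was 0.97 for Vsig4, 0.95 for Clec4f, 0.95 for Csf1r, 0.94 for Cd5l, 0.91 for Timd4 and 0.86 for Adgre1. It was lower for Mrc1 (0.78), Cd163 (0.76), C1qa (0.70) and Marco (0.62). Within groups, after group means were taken off, it was 0.89 for Timd4, 0.67 for Marco, 0.57 for Mrc1, 0.48 for C1qa and 0.27 for Cd163. The libraries mix both strains, and Marco, Adgre1, C1qa and Mrc1 differed between strains in PBS animals. Among the genes outside the list most like that mean were Igsf6 (Pearson r = 0.95), Apbb1ip, Apaf1, Lgmn, B4galt6, Ctss, Plac8, Tm6sf1 and March1 (0.93). These are descriptions over 36 libraries that share group differences and processing, and carry no test.
The order of groups also differed by gene. The 8025 cachexia group had the highest mean of 9 for 8 members. C1qa was highest before C26 cachexia (8.36 ± 1.51 CPM, SD, n = 4) and Mrc1 in C26 cachexia (237 ± 33.2 CPM, SD, n = 4). Summed over the 10 members, the group medians were 372 CPM in C26 PBS, 606 before C26 cachexia and 577 in C26 cachexia, 285 and 420.4 in NC26 PBS and tumour animals, 329 and 841 in 8025 PBS and cachexia, and 292 and 408 in MC38 PBS and tumour animals. Mrc1 weighs most in these sums, with means of 182 CPM in C26 PBS, 206 before C26 cachexia and 237 in C26 cachexia. Between the last 2 groups mean Cd163 also rose, from 45.4 to 89.6 CPM. The means of all other members fell, among them Adgre1 (68.7 to 40.0 CPM), Cd5l (54.2 to 30.4) and Timd4 (37.0 to 21.8).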

How the data were processed

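RNA was measured in whole liver nuclei and in bead-bound hepatocyte nuclei of 36 mice. Per the labels' protocols, total RNA without poly-A selection was made into stranded libraries and sequenced as 50-base paired ends. The genome build was mm10 and the tools were STAR 2.4.2a, an aligner, and DESeq2 1.24.0, whose role is not given; both come from the submitters' processing notes. Deposited values are raw counts of reads over whole gene spans, introns included, per the file headers. How strand was used is not given in the sources used here.

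These counts were tested with edgeR 4.0.16 (R 4.3.3): filterByExpr by group, TMM scaling, and the quasi-likelihood F test with Benjamini-Hochberg adjustment over all genes at 0.05. Each fraction was fitted with 36 libraries in 9 groups (13738 genes in whole liver, 13274 in hepatocyte nuclei), and both together with 72 libraries (14054 genes). The SE is the size of the log2 fold change divided by the square root of F, and 95% intervals are 1.96 SE. CPM values and shares per animal come from the joint scaling. The whole liver fit was tried on simulated counts of independent libraries, for C26 cachexia against PBS only. The joint fit, in which both libraries of an animal correlate, was not tried in this way.

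Both libraries of an animal pair by the animal number in the labels: deviations from group means correlated in 35 of 36 animals above 0.1 (median 0.54, lowest -0.19). The lowest was C26 PBS animal 1. Genes with rRNA-like reads took 1.09% of its whole liver counts (5.00% to 7.33% in the rest of its group). In its hepatocyte nuclei they took 7.00% (2.06% to 3.51% in the rest). The pairing is thus least certain for this animal, and the cause was not tested. Within a fraction, replicate numbers did not correlate above 0.1 in every pair of any comparison. PBS and pre-cachexia C26 hepatocyte libraries came closest, with 3 of 4 pairs above 0.1 (median 0.165). Replicates are separate animals, and no replicate pair had identical counts.

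Members and lists were chosen with earlier results of these data known. All 10 members were tested in each comparison, and the rule was to name all of them; in the comparisons between PBS groups, between C26 cachexia and pre-cachexia, of hepatocyte nuclei with NC26 and MC38, and of the share, members that were not called are given partly by their count. From each further list the text gives counts and names at most the 3 called genes with the smallest p in C26 and in 8025 cachexia, and the 10 genes most like the members' mean were taken by Pearson correlation, of which 1 is not reported here. The 5 genes of the other Kupffer cell list with low shares in hepatocyte nuclei and Id3, C6 and Nr1h3 were named after their values were seen. Promoter windows are from RefSeq on GRCm38.p6. Alternatives were DESeq2 1.42.0 and its size factors, library totals, no filter, only the groups compared, a replicate block, removal of 5 genes with rRNA-like reads, and leaving out each animal.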

Additional observations from a re-analysis of the deposited data

Results flagged for a closer look

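In a group of 4 animals, a highest or lowest value far from the other 3 was found in 15 of 180 sets of values, and chance alone gives about 1 in 20. In whole liver nuclei, C26 cachexia animal 1 read 71.0 CPM for Clec4f, above the other 3 at 47.1 to 49.5, and MC38 PBS animal 3 read 32.0 CPM for Vsig4, above 18.8 to 20.1. MC38 tumour bearer 1 read 11.7 CPM for Timd4, below 22.4 to 23.2, and NC26 tumour bearer 3 read 55.0 CPM for Adgre1, above 41.3 to 42.7. For Csf1r, 8025 PBS animal 1 read 17.3 CPM, below 26.5 to 28.4. For Mrc1, C26 PBS animal 1 read 229 CPM, above 162 to 171, and NC26 PBS animal 4 read 149.7 CPM, above 125 to 126.

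In hepatocyte nuclei, C26 PBS animal 1 stood above its group for Timd4 (3.90 CPM against 1.92 to 1.93), Csf1r (10.2 against 4.38 to 5.37) and Cd163 (7.38 against 4.08 to 4.49). Timd4 also had a high animal in 3 tumour groups: NC26 tumour bearer 2 (3.65 CPM, the others 2.66 to 2.80), 8025 cachexia animal 3 (6.81, the others 5.47 to 5.65) and MC38 tumour bearer 3 (4.21, the others 2.002 to 2.35). Low animals were 8025 cachexia animal 4 for Vsig4 (13.5 CPM, the others 15.7 to 16.1) and C26 pre-cachexia animal 2 for Cd163 (3.77, the others 7.18 to 7.86).

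Effects of 2 tumours differed by edgeR's test of the difference itself in 11 cases. The 8025 effect exceeded the MC38 effect for Clec4f (0.89 on the log2 scale), Vsig4 (1.16), Cd5l (1.35), Marco (4.04), Csf1r (1.26), C1qa (1.33) and Cd163 (1.84). The C26 cachexia effect was below the 8025 effect for Clec4f (-0.87), Timd4 (-0.91), Marco (-3.48) and Csf1r (-1.31).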

How the results depend on the processing

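All 10 calls with 8025 cachexia in whole liver nuclei, and those of Vsig4 and Cd163 in C26 cachexia, held in every alternative run. Library totals in place of TMM scaling gave 3 called members in C26 cachexia and 7 between the C26 and 8025 effects. They turned the log2 change of Timd4 in C26 cachexia (-0.0195), of C1qa between the C26 and NC26 effects (-0.067) and of Clec4f between cachexia and pre-cachexia in hepatocyte nuclei (-0.0914, with -0.00298 without the rRNA-like genes and -0.00341 with only the groups compared). That scaling moved the median of all genes by up to -0.23 and the percentage of called genes that were higher from 53.5% to 34.9% in C26 cachexia and from 51.1% to 68.2% with 8025. Fits of only the groups compared called 1 member between C26 cachexia and pre-cachexia, 6 with NC26, 2 between the C26 and 8025 effects, 2 between the BALB/c PBS groups and 3 before C26 cachexia in hepatocyte nuclei. DESeq2 called 5 members with NC26 in whole liver nuclei and 1 in hepatocyte nuclei, while DESeq2 size factors, no filter and the replicate block each left 1. The replicate block kept 141 of 150 single-gene results and 14 of 15 counts, and a block on the animal changed 0 of 16.

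Leaving out each animal in turn gave 2 to 6 members in C26 cachexia, 1 to 4 between cachexia and pre-cachexia, 0 to 2 with NC26, 1 to 6 between the C26 and 8025 effects, 0 to 1 between the BALB/c PBS groups and, in hepatocyte nuclei, 4 to 8 in C26 cachexia, 2 to 6 before it and 0 to 1 between them. Log2 changes that crossed zero were Timd4 (-0.12 to 0.19) and Marco (-0.32 to 0.53) in C26 cachexia, and Marco (-0.64 to 0.18) and C1qa (-0.0147 to 0.42) with MC38. Between the C26 and NC26 effects these were Clec4f (-0.19 to 0.00448), Cd5l (-0.52 to 0.14) and C1qa (-0.14 to 0.40), and between BALB/c PBS groups Cd5l (-0.0277 to 0.25). Between C57BL/6N PBS groups they were Clec4f (-0.15 to 0.0513), Marco (-0.53 to 0.33), Csf1r (-0.0177 to 0.19), C1qa (-0.0278 to 0.49) and Mrc1 (-0.0393 to 0.18). In hepatocyte nuclei they were Clec4f between cachexia and pre-cachexia (-0.10 to 0.14), Marco (-0.24 to 1.02), C1qa (-0.0313 to 0.43) and Mrc1 (-0.0216 to 0.30) with NC26, and Marco with MC38 (-0.52 to 0.12). The causes were not tested. Low counts of Marco and C1qa limit their precision.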
